A study of Homo sapiens with 6 samples.

Results

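The comparison sets GR, ES2 cells given G together with R, against G, the same line given G alone, and so describes what differed when R was added on top of G. ES2 is an established human ovarian cancer line, and each group was a single library collected after 7 days. A gene counted as measured where its FPKM, a read level corrected for gene length and library depth, was at least 1 in either library, which held for 12612 of the 33706 genes in the table. The series has 6 such groups: a control without drugs, T, G (described as G4), R, TR and GR. The protocol names a T-oligo, G4 and the G-quadruplex ligand RHPS4, but the labels do not spell out the letters, which are kept, and TR and GR are read as combinations. Doses, and whether G was given alike in G and GR, are not in the labels. Where a gene's levels in all 6 libraries are listed, the order is Control, T, G, R, TR, GR.

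All 6 titles carry ES2, but the source and tissue labels read SKOV3, another ovarian cancer line, for G, R, TR and GR and ES2 for Control and T. G and GR thus share both labels, whereas R differs from Control, and TR from T, in the source label as well as in R. ERBB2, the receptor gene amplified in SKOV3, stood at 0.444 FPKM in G and 0.721 FPKM in GR and between 0.146 and 0.249 FPKM in the other 4. Library totals were 78683454 counts for G and 83976498 for GR, and 73213048 to 83221578 for the other 4. With 1 library a group, a difference between GR and G has no replicate check and no test, and log2 ratios are of FPKM + 1, which understates differences of low genes. Counting error alone was small for abundant genes: the 95% half-width of the log2 ratio of counts was 0.05 for CXCL1 and 0.34 for H2AC19. Of 13 listed leukocyte markers 8 are in the table and 1 was measured, CD68, with a log2 ratio of -0.97. The list summed to 38.95 FPKM in G and 19.28 FPKM in GR, or 0.00896% and 0.00444% of counts. In cell cultures of this kind, fewer cells of a state and less RNA per cell cannot be told apart.

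G-quadruplexes are stacked guanine structures that can form in telomeres, promoters, RNA and the guanine-rich strand of mitochondrial DNA, and ligands such as RHPS4 bind and stabilise them. The mitochondrial genome is transcribed as long precursors from promoters near the ribosomal RNA genes, and the precursors are then cut into ribosomal RNAs, transfer RNAs and the mRNAs of respiratory chain subunits. NF-kB is the transcription factor behind most inducible chemokine genes, HSF1 drives heat shock genes through heat shock elements, and the CHR element keeps mitotic genes silent until the G2 phase.

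The promoter sequences shown first are the 250 bases before the RefSeq transcript start (GRCh38.p14), chosen because their genes carry the differences described later. The chemokine genes CXCL1 (chr4:73869143-73869392, plus strand), CXCL2 (chr4:74099196-74099445, minus strand), CXCL8 (chr4:73740319-73740568, plus strand) and the cytokine gene IL6 (chr7:22726950-22727199, plus strand) are shown with the letters GGANNTTCC, an NF-kB motif read on both strands, in capitals. These letters occur in 1060 of 27305 promoters of the same length, or 3.88%. Of the 9 chemokine and cytokine genes at least 2-fold lower in GR, 8 had a promoter entry and 6 of these held the motif. Over the whole list 15 measured genes had an entry and 9 held the motif. IL6, IL32 and IL7R held it and were not at least 2-fold lower, so it was not particular to the lower genes. This is a description of letters and not a mapped site. The windows of CXCL8 and IL6 lie partly or wholly inside the span that the authors' table gives the gene, as does that of PLK1.
CXCL1: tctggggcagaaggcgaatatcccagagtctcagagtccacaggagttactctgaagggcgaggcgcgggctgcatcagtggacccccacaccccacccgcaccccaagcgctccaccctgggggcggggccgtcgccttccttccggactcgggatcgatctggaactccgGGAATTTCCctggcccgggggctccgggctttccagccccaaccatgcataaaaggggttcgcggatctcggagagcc
CXCL2: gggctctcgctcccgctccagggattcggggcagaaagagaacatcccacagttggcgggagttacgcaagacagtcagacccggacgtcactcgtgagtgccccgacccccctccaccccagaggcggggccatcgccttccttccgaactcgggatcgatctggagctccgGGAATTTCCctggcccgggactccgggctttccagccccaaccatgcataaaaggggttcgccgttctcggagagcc
CXCL8: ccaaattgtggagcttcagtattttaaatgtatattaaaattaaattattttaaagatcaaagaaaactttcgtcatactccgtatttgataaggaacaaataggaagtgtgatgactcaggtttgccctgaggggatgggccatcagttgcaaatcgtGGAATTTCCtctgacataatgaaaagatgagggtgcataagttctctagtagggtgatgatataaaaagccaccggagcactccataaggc
IL6: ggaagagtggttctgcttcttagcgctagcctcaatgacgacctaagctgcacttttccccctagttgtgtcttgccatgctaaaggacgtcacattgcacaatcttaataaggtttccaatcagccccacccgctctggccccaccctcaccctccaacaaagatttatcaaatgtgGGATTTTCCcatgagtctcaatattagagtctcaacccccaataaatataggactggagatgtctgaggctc

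For the mitotic genes PLK1 (chr16:23678639-23678888, plus strand) and CDC20 (chr1:43358731-43358980, plus strand), the capitals mark the CHR letters TTTGAA on either strand, found in 13.6% of all promoters. Of 29 mitotic genes with an entry, among 35 measured, 16 held TTTGAA and 23 held CCAAT, which is found in 33.0% of all promoters. In CDC20 the 2 matches began 178 and 65 bases before the start.
PLK1: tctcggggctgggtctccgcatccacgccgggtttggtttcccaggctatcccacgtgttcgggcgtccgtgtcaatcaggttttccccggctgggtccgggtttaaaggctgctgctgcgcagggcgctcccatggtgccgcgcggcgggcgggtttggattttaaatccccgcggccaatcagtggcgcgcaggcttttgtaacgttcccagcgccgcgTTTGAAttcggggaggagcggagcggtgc
CDC20: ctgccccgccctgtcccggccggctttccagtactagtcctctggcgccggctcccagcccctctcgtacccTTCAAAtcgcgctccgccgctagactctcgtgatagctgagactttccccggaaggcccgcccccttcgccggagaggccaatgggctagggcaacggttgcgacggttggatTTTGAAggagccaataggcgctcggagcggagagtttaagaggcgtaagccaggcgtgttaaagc

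For the heat shock gene HSPA6 (chr1:161524290-161524539, plus strand), the capitals mark a heat shock element, searched on both strands as 3 GAA units in alternating orientation with 2 bases between them, which is found in 0.439% of all promoters. For DUSP1 (chr5:172771196-172771445, minus strand), which encodes a phosphatase that switches off MAP kinases, they mark the cAMP response letters TGACGTCA, found in 1.77%. Both genes were called in the test of the R effect described later, a call that depends on the processing. They are shown because they hold the letters: of 17 measured heat shock genes with a promoter entry 3 held the element, HSPA1A and HSPA1B held 0 matches, and FOS held 0 matches to TGACGTCA.
HSPA6: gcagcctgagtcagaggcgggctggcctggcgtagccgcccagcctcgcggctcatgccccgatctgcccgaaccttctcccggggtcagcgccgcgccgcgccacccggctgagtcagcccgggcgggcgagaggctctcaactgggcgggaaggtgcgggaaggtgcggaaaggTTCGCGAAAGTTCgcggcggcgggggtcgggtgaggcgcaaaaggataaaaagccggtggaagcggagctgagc
DUSP1: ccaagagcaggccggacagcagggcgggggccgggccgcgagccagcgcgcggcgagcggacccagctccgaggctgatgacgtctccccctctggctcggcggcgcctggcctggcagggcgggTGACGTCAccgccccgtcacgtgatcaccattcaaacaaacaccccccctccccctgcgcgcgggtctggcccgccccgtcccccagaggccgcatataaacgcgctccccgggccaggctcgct

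Across the 12612 measured genes, 173 (1.37%) were at least 2-fold higher in GR and 275 (2.18%) at least 2-fold lower, with a median log2 ratio of -0.01. Of the 275 lower genes, 34 were mitochondrially encoded. Among the 12575 nuclear genes, 173 (1.38%) were higher and 241 (1.92%) lower, and 90% lay between -0.76 and 0.68. Rescaling the FPKM values without the mitochondrial genes, which took 6.17% of counts in G and 0.893% in GR, gave 138 higher and 354 lower genes, a share of higher genes of 28.0% in place of 38.6%. Nearest to the threshold, MTX1LP (1.0023) was just inside and CPNE1 (0.998) just outside on the higher side, and OCIAD1-AS1 (-1.0002) just inside and HELLS (-0.9999) just outside on the lower side.

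**Figure D1:**
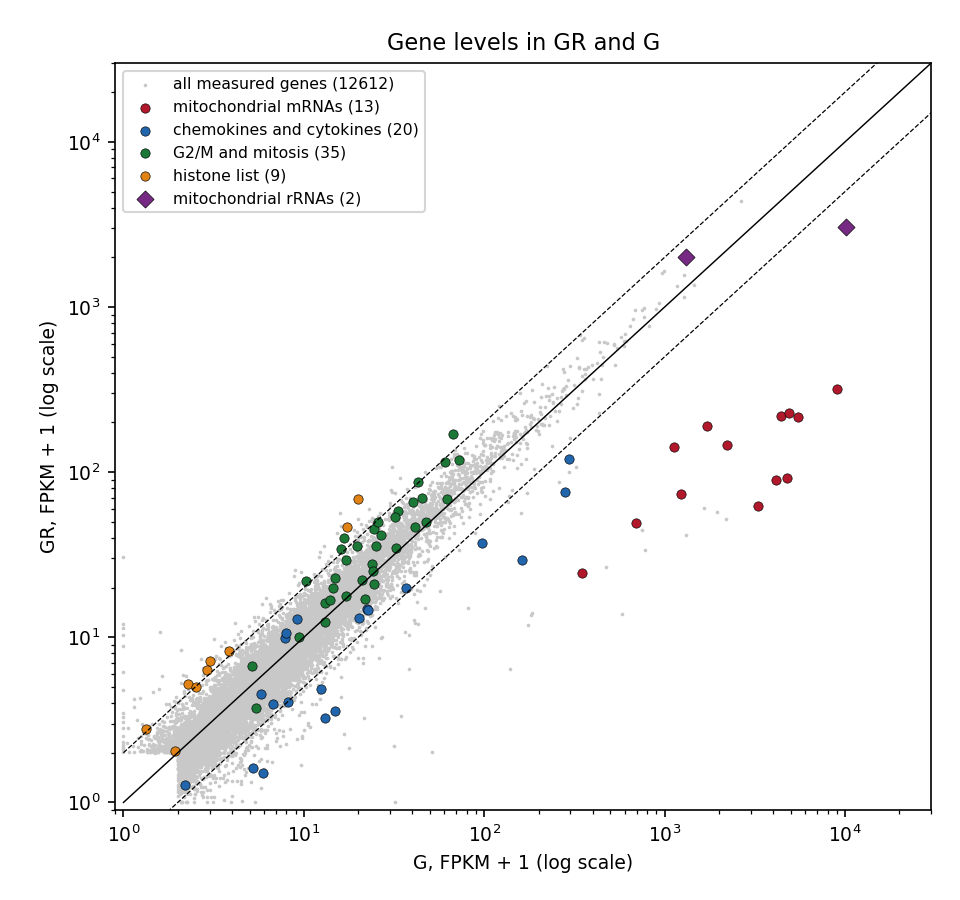
Level of each measured gene in G (x axis) and GR (y axis) as FPKM + 1 on log scales, with the line of equality and dashed lines at 2-fold. The 13 mitochondrial mRNAs lie far below the line, most chemokines and cytokines below it, and most mitotic and histone genes on or above it.

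The mitochondrial mRNAs had the lowest median of the 40 gene lists. All 13 were past 2-fold lower in GR, and their median log2 ratio was -4.34 beside -0.01 over all genes. MT-CO1, the catalytic core of cytochrome c oxidase (ENSG00000198804, mitochondrial genome 5904 to 7445, plus strand), stood at 9018 FPKM in G and 320 FPKM in GR, a log2 ratio of -4.81. MT-CO3, another subunit of that enzyme, stood at 4774 and 91.4 FPKM (-5.69). MT-ND4L, a complex I subunit, stood at 3300 and 61.6 FPKM (-5.72), the lowest ratio of the 13. MT-CO3 and MT-ND4L each overlap an adjacent gene of that strand, so reads may be shared.

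MT-CYB, the complex III subunit at the far end of the same strand, had the ratio nearest 0 of the 13, with 1119 FPKM in G and 141 FPKM in GR (-2.98). MT-ND1, the first mRNA after the ribosomal genes, stood at 1721 and 188 FPKM (-3.19). MT-ND6, the only mRNA of the other strand, stood at 696 and 48.0 FPKM (-3.83), inside the range of the rest.

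The 2 ribosomal RNAs differed from the mRNAs and from each other. The 12S rRNA MT-RNR1 was at 1310 FPKM in G and 2003 FPKM in GR (0.61), so it was higher in GR. Its ratio was 0.20 in R against Control and -0.06 in TR against T. The 16S rRNA MT-RNR2, which follows it in the same precursor, was at 10176 and 3037 FPKM (-1.74). Among the 22 transfer RNAs the median was -3.54 and 20 were past 2-fold, all lower, and the exceptions were MT-TT at 0.27 and MT-TG at -0.99. Mature transfer RNAs are shorter than the fragments this kind of library holds.

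The nuclear copies of mitochondrial sequence MTCO1P12 (138 FPKM in G, 5.40 FPKM in GR) and MTATP6P1 (748 and 43.6 FPKM) were lower in the same way, and reads cannot be assigned with certainty between them and their mitochondrial counterparts. The nuclear genes that serve the mitochondrial genome were not lowered to a like extent: of 29 measured genes for its replication and transcription, 0 passed 2-fold in either direction (median -0.32). Of 36 nuclear-encoded respiratory chain subunits, 0 passed 2-fold and 29 had a positive ratio (median 0.21). Over all measured genes 3.55% passed 2-fold.

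The same 13 mRNAs had medians of -5.61 in R against Control and -4.77 in TR against T, pairs that share no library with GR and G. In those pairs, and in every comparison with them that follows, R and the source label change together and cannot be told apart by the labels. Whether R acted differently in the G background was tested for every gene as the R:G term of an edgeR quasi-likelihood model. The model covers all 6 libraries and has 1 residual degree of freedom, the departure between R against Control and TR against T. It thus takes R to act alike in the 2 backgrounds without G. Of the 23071 genes tested, 51 (0.221%) passed an adjusted p of 0.05. None of the 13 mRNAs was among them, their log2 differences lying between 0.15 and 1.08, with 3 at an unadjusted p under 0.05. They made up 4.27% of counts in G and 0.182% in GR, against 0.0992% in R and 0.112% in TR.

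Chemokine and cytokine genes stood lower in GR than in G as a group. Of the 20 measured genes of the list, 9 were at least 2-fold lower and 0 higher, and the median was -0.94. Over all measured genes 2.18% were lower. CXCL1, a neutrophil attractant (ENSG00000163739, chr4:73869393-73871308, plus strand), stood at 15.4, 13.6, 160, 10.2, 18.6 and 28.5 FPKM in the 6 libraries. G was the high library, and GR lay between G and the other 4. Its log2 ratio of GR against G was -2.45.

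CXCL8, the gene of interleukin-8, stood at 63.1, 72.5 and 279 FPKM in Control, T and G and at 40.3, 61.4 and 74.8 FPKM in R, TR and GR (-1.89). CXCL2, a related attractant, stood at 2.77, 6.71, 13.97, 2.44, 6.63 and 2.56 FPKM in the 6 libraries (-2.07). GR was thus back among the libraries without G for CXCL2, and just above them for CXCL8.

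The interleukin-1 genes showed the same order, with G highest. IL1A stood at 0.552, 2.83, 12.02, 0.688, 1.12 and 2.26 FPKM in the 6 libraries (-1.996). IL1B stood at 16.5, 28.4, 96.1, 18.1, 25.1 and 36.1 FPKM (-1.39). The colony stimulating factor genes CSF2 (4.95 FPKM in G, 0.511 in GR, -1.98) and CSF3 (4.20 and 0.619, -1.68) and the chemokine genes CXCL3 (-1.36) and CXCL5 (-1.29) completed the 9.

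**Figure D2:**
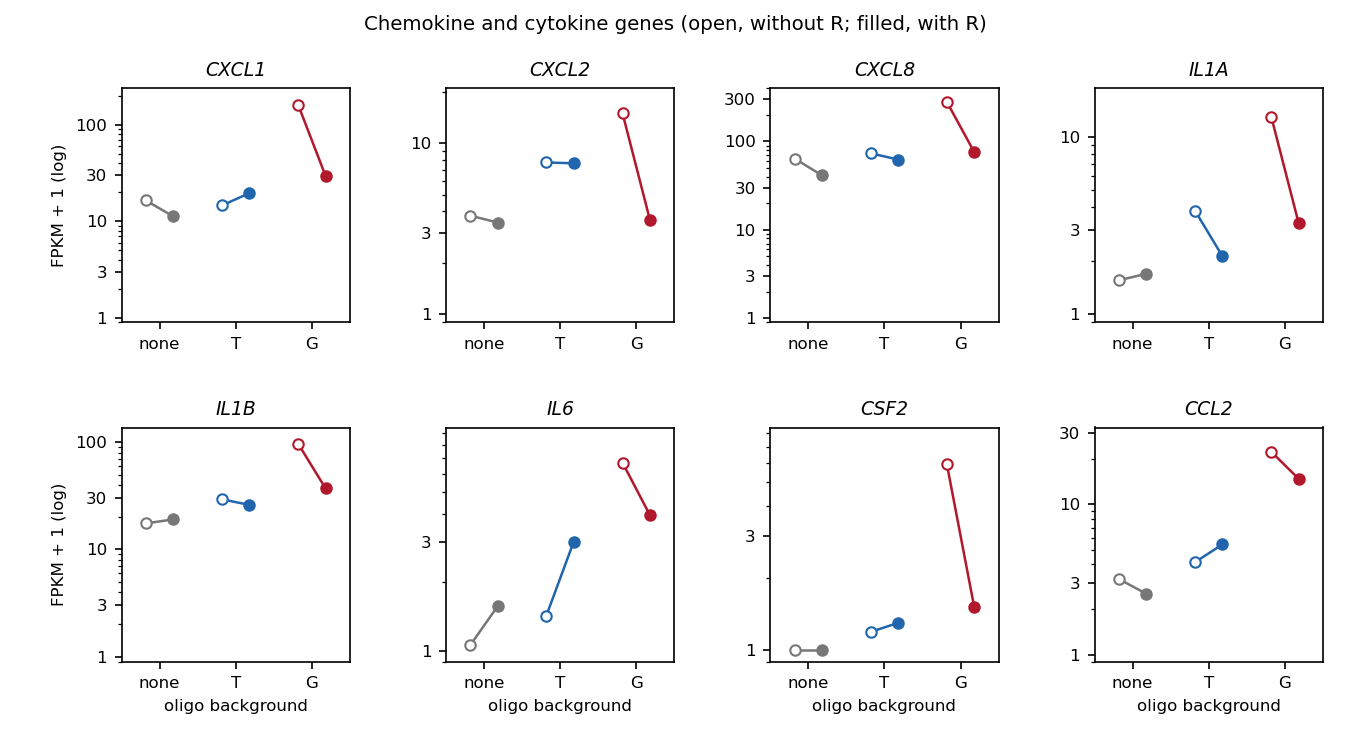
FPKM + 1 (log scale) of 8 chemokine and cytokine genes without R (open) and with R (filled) in the 3 backgrounds, 1 library per point. The open point of G is the highest of the 6 in every panel, and the filled point of GR lies below it.

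The 9 were picked out by their ratio to G, so their high place in G is part of that choice. Of the 20 measured members, 3 passed the FPKM minimum through G alone, 7 of the other 17 were at least 2-fold lower, and without the minimum the list median was -0.63. The list medians in the pairs without G were 0.08 for R against Control and 0.07 for TR against T. Of the 20 genes, IL6 alone passed the test of the R:G term, and 11 had an unadjusted p under 0.05. IL6 stood at 0.0610, 0.430, 5.70, 0.572, 2.02 and 2.94 FPKM in the 6 libraries. With R it was higher in the backgrounds without G and lower with G, a difference of -3.79 on the log2 scale (SE 0.72, edgeR adjusted p = 0.00753). With median-ratio scaling in place of TMM, the adjusted p of IL6 was 0.124 and the call was lost. For CXCL1 the difference was -2.60 (SE 0.70, adjusted p = 0.186) and for CXCL2 -2.53 (adjusted p = 0.201), neither called.

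Other NF-kB targets were mixed, where 2.18% of all measured genes were at least 2-fold lower and 1.37% higher. Of 23 measured feedback and survival genes, 4 were at least 2-fold lower, among them BIRC3, an inhibitor of apoptosis (11.1 FPKM in G, 3.62 in GR, -1.39), and VCAM1, an adhesion molecule (45.3 and 19.8, -1.16). BCL3, a nuclear regulator of NF-kB, was higher (4.90 and 12.1, 1.15). C3, the complement gene (5.64 and 0.764, -1.91), overlaps another gene on the same strand. The list median was -0.35.

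Several heat shock and immediate early genes were high with R in the other backgrounds and not in G. HSPA1A, the inducible HSP70 chaperone (ENSG00000204389, chr6:31815543-31817946, plus strand), stood at 35.8, 15.7 and 34.2 FPKM in Control, T and G and at 350, 267 and 36.0 FPKM in R, TR and GR. It was about level between G and GR (0.07) but higher with R in the other backgrounds (3.25 and 4.003). The difference was -3.80 on the log2 scale (SE 0.64, edgeR adjusted p = 0.00196).

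Its neighbour HSPA1B, a near-identical copy whose reads may be shared with it, had a difference of -3.83 (SE 0.64, edgeR adjusted p = 0.00178). HSPA6, a strictly inducible HSP70, stood at 0.0732, 0.0218 and 0.0975 FPKM in Control, T and G and at 3.63, 2.74 and 0.189 FPKM in R, TR and GR, and was also called (-5.32, SE 0.93, edgeR adjusted p = 0.00280). The constitutive chaperones did not share this pattern: HSPA8 stood at 376, 235, 215, 333, 229 and 246 FPKM in the 6 libraries. In GR against G, 0 of the 19 measured heat shock genes passed 2-fold, with a median of 0.19, and 2 of the 19, HSPA1A and HSPA1B, passed the R:G test. HSPA6 was under 1 FPKM in both and so is not among the 19. Of all genes measured in GR or G, 3.55% passed 2-fold.

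FOS, a subunit of the AP-1 transcription factor, stood at 1.33, 0.593 and 1.35 FPKM in Control, T and G and at 25.8, 21.1 and 2.28 FPKM in R, TR and GR. The difference for FOS was -4.12 (SE 0.71, edgeR adjusted p = 0.00252). DUSP1 stood at 72.0, 192 and 78.9 FPKM in Control, T and G and at 1133, 1278 and 130 FPKM in R, TR and GR, a difference of -2.83 (SE 0.55, edgeR adjusted p = 0.0106). Both were high only in R and TR. ZFP36, which encodes an mRNA-destabilising protein, followed the same order (2.70, 2.00, 2.28, 27.5, 33.6 and 6.75 FPKM in the 6 libraries) but was not called (-2.33, adjusted p = 0.290).

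**Figure D3:**
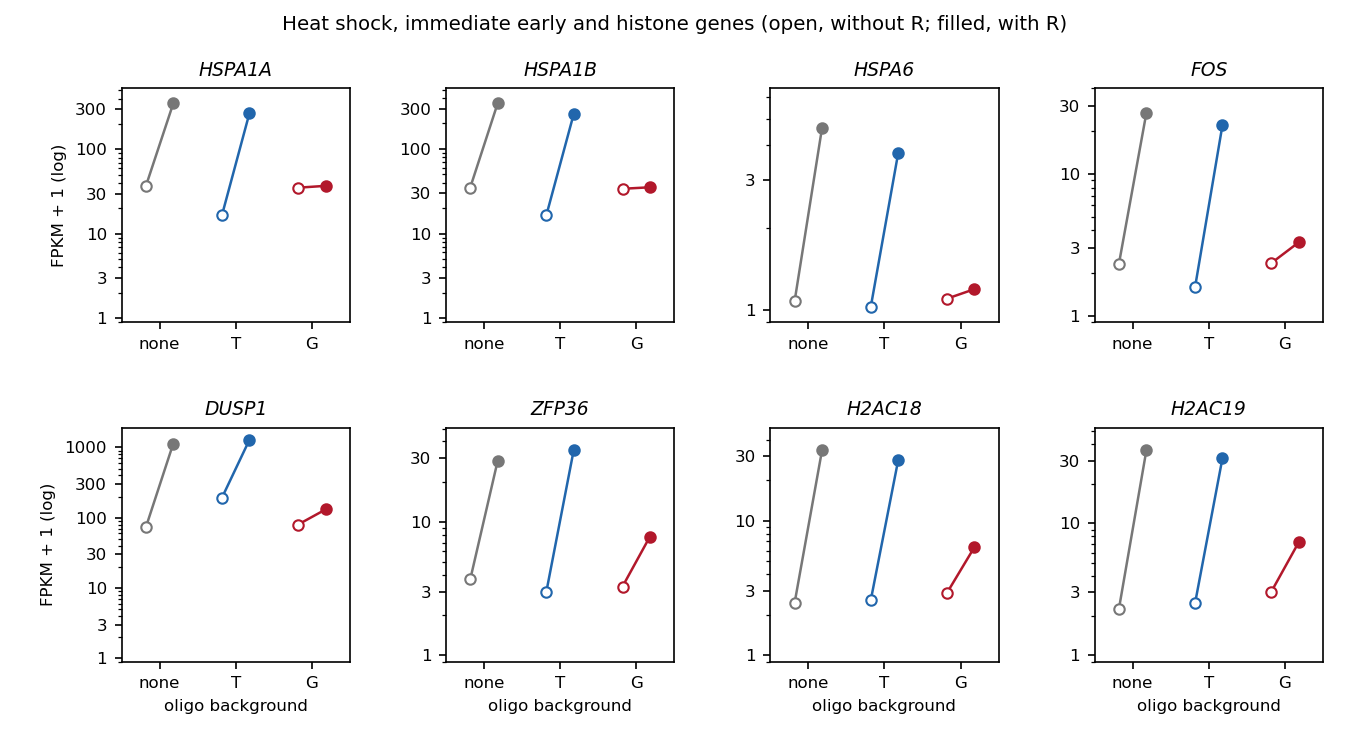
FPKM + 1 (log scale) of 8 heat shock, immediate early and histone genes without R (open) and with R (filled) in the 3 backgrounds, 1 library per point. The filled points of R and TR stand high in every panel, and that of GR stands below both.

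Of 32 measured immediate early genes, 2 were at least 2-fold higher in GR than in G, ZFP36 (1.24) and FOSL2, an AP-1 subunit (1.09), and 0 lower. The list had 12 members at least 2-fold higher in R against Control, where 3.0% of measured genes were, and 15 in TR against T, where 6.0% were. The R:G calls depend on the processing. In edgeR with median-ratio factors the adjusted p was 0.0640 for HSPA1A, 0.0679 for FOS and 0.231 for DUSP1. Without a filter on low counts edgeR called no gene. The DESeq2 Wald test, which also scales by median ratios, called all 3 (adjusted p 1.84e-06, 1.84e-06 and 0.0127).

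The histone genes that reached the FPKM minimum stood higher in GR. They were 9 of a list of 44, and 7 of them were past 2-fold, all higher, beside 1.37% of all measured genes. Their median was 1.13. Of the 9, 2 passed the minimum through GR alone, and without the minimum the list median was 0.07. H2BC12, a histone H2B gene, stood at 16.2 FPKM in G and 45.8 FPKM in GR (1.44). H2AC19, a histone H2A gene, stood at 1.26, 1.495 and 2.03 FPKM in Control, T and G and at 34.8, 30.4 and 6.19 FPKM in R, TR and GR. The R:G difference of H2AC19 was -3.15 (SE 0.71, edgeR adjusted p = 0.0494), and with median-ratio factors the call was lost (adjusted p = 0.291). H2AC18, a near-identical gene, stood at 1.898 FPKM in G and 5.32 FPKM in GR and was not called (adjusted p = 0.0850). Replication-dependent histone mRNAs lack poly(A) tails, and the libraries were selected with oligo(dT), so their levels here hold only the reads that this selection let through.

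Mitotic genes leaned higher and DNA replication genes lower. Of 35 measured genes of G2 and mitosis, 5 were at least 2-fold higher and 0 lower, beside 1.37% and 2.18% of all measured genes. The median was 0.51. CDC20, which switches on the anaphase-promoting complex (ENSG00000117399, chr1:43358981-43363203, plus strand), stood at 66.2 FPKM in G and 169 FPKM in GR (1.34). PLK1, a mitotic kinase, stood at 15.6 and 39.1 FPKM (1.27). KIF20A (1.10), CENPA (1.09) and CCNB1 (1.02), a kinesin, the centromeric histone and cyclin B1, were the other 3.

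GR was the highest of the 6 libraries for 21 of the 35 genes, and T the lowest for 32. The matching shares over all measured genes were not taken, so these counts describe the list only. For CDC20 the values were 131, 29.7, 66.2, 194, 221 and 169 FPKM in the 6 libraries, and for PLK1 they were 36.5, 8.60, 15.6, 29.9, 40.1 and 39.1 FPKM. G thus lay between T and Control for both genes. The list medians were 0.14 in R against Control and 1.47 in TR against T, and 0 of the 35 passed the edgeR test of R:G (1 at an unadjusted p under 0.05). Tubulin genes leaned the same way (15 measured, 1 at least 2-fold higher, median 0.59), with TUBB3 at 6.35 and 14.8 FPKM (1.10), which overlaps a readthrough gene.

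In the S phase list 3 of 34 measured genes passed 2-fold, all of them lower, beside 2.18% of all measured genes. The median was -0.46, beside -0.58 in R against Control and 0.24 in TR against T. MCM6, part of the replicative helicase, stood at 23.7 FPKM in G and 10.6 FPKM in GR (-1.09). CCNE2, the S phase cyclin E2, stood at 3.55 and 0.694 FPKM (-1.43), and POLE2, a polymerase epsilon subunit, at 5.53 and 2.26 FPKM (-1.004). The cyclin-dependent kinase inhibitor CDKN2D was higher (3.16 and 11.1 FPKM, 1.54), as was the stress gene GADD45B (19.8 and 47.8 FPKM, 1.23), and the list of 27 such genes had a median of 0.06.

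Genes of telomeres and of G-quadruplex handling showed no member past 2-fold, where 3.55% of all measured genes were. In lists this small a count of 0 is near that share. Of 25 measured telomere protein and telomerase genes, 0 passed in either direction (median 0.00), and of 19 helicases that unwind G-quadruplexes, 0 passed (median -0.37). Among 33 genes of the DNA damage response, 2 were lower and 0 higher, with a median of -0.28. They were RBBP8, which starts DNA end resection (12.9 FPKM in G, 5.67 in GR, -1.06), and NBN, part of the MRN complex (5.54 and 2.21, -1.03).

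Cholesterol and fatty acid genes were lower. In this list 4 of 27 measured genes passed 2-fold, all of them lower, beside 2.18% of all measured genes. The median was -0.70. STARD4, a sterol carrier, stood at 5.14, 6.21 and 8.18 FPKM in Control, T and G and at 1.80, 1.42 and 1.43 FPKM in R, TR and GR (-1.92). SCD, which desaturates fatty acids, stood at 171 FPKM in G and 73.2 FPKM in GR (-1.21), and FASN, fatty acid synthase, at 134 and 65.4 FPKM (-1.02). HMGCS1, an early enzyme of cholesterol synthesis, stood at 9.23 and 3.98 FPKM (-1.04). For STARD4, SCD and FASN the 3 libraries with R all lay below the 3 without it, and the list median was -0.76 in R against Control and -0.33 in TR against T.

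Endoplasmic reticulum chaperones had a median of -0.38 over 21 genes, with 1 past 2-fold, HSP90B1 (87.9 FPKM in G, 42.1 in GR, -1.04). Their medians were 0.20 in R against Control and 0.05 in TR against T, and 0 of 21 passed the edgeR test of R:G (2 at an unadjusted p under 0.05). In the integrated stress response list 1 of 33 genes was higher, PPP1R15A, the eIF2 phosphatase subunit (36.1 and 78.3 FPKM, 1.10), and the median was -0.05, beside -0.97 in TR against T. Cytosolic ribosomal protein genes had 0 of 41 past 2-fold (median 0.11). The share of all measured genes past 2-fold in GR against G was 3.55%.

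Single genes of glucose uptake and antioxidant defence passed 2-fold, and most members of their lists did not, beside 3.55% of all measured genes past it. SLC2A1, the glucose transporter GLUT1, stood at 11.2 FPKM in G and 31.8 FPKM in GR (1.42), and SLC2A3, GLUT3, at 4.55 and 12.2 FPKM (1.25). Both overlap another gene on the same strand, and they were the 2 past 2-fold among 24 genes of glucose transport and glycolysis (median 0.27). NQO1, a quinone reductase under NRF2, stood at 20.5, 13.3 and 15.1 FPKM in Control, T and G and at 34.1, 36.9 and 46.1 FPKM in R, TR and GR (1.55), and was the 1 of 24 NRF2 genes past 2-fold (median 0.28).

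Some smaller lists held a few genes past 2-fold, at shares above the 3.55% of all measured genes. Among 16 mesenchymal and epithelial genes 2 were higher and 1 lower, and among 27 apoptosis regulators 3 were higher and 1 lower. Each share rests on few genes and was not tested. Among 16 mesenchymal and epithelial genes (median 0.46, and 0.11 without the FPKM minimum), SNAI1, a repressor of E-cadherin, stood at 1.77 FPKM in G and 5.49 FPKM in GR (1.23), KRT18, a keratin, at 120 and 249 FPKM (1.05), and CLDN1, a tight junction gene, at 11.6 and 4.40 FPKM (-1.22). Among 27 apoptosis regulators (median 0.03), the pro-apoptotic genes BMF (1.22 and 4.86 FPKM, 1.40) and BAD (15.4 and 33.1 FPKM, 1.05) were higher, as was TNFRSF6B, a decoy receptor that blocks death ligands (29.7 and 106 FPKM, 1.80), which overlaps another gene. The survival gene BCL2A1, an NF-kB target, was lower (20.4 and 5.99 FPKM, -1.61). TGFB1, the growth factor TGF-beta 1 (1.09), and ID1, an inhibitor of helix-loop-helix factors (14.3 and 41.8 FPKM, 1.48), were the 2 past 2-fold among 17 TGF-beta and BMP targets (median 0.38).

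The same share, 3.55% of all measured genes, stands beside the lists that follow. A count of 0 or 1 in them is near it, and the 2 of 14 circadian genes are above it. NR1D1 (2.38 and 6.47 FPKM, 1.14) and NFIL3 (10.6 and 22.3 FPKM, 1.01), both clock repressors, were the 2 past 2-fold among 14 circadian genes (median 0.12). MMP3, stromelysin 1, was the 1 among 16 metalloproteinase and inhibitor genes (4.33 and 11.6 FPKM, 1.24, median 0.26, and 0.01 without the FPKM minimum), and IFI44 the 1 among 24 interferon-stimulated genes (12.9 and 5.596 FPKM, -1.08, median -0.06). No member passed 2-fold in either direction among 29 collagen and matrix assembly genes (median -0.10), 32 autophagy and lysosome genes (0.22), 26 ribosome biogenesis genes (-0.16), 19 YAP targets (0.19), 19 hypoxia genes outside glycolysis (0.07), 16 mitochondrial chaperones and proteases (0.03), 14 class I presentation genes (-0.03), 9 Notch and HES genes (0.22, and 0.0066 without the FPKM minimum), 5 metallothioneins (0.01), and the 3 measured fibroblast and endothelial markers (-0.17).

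**Figure D4:**
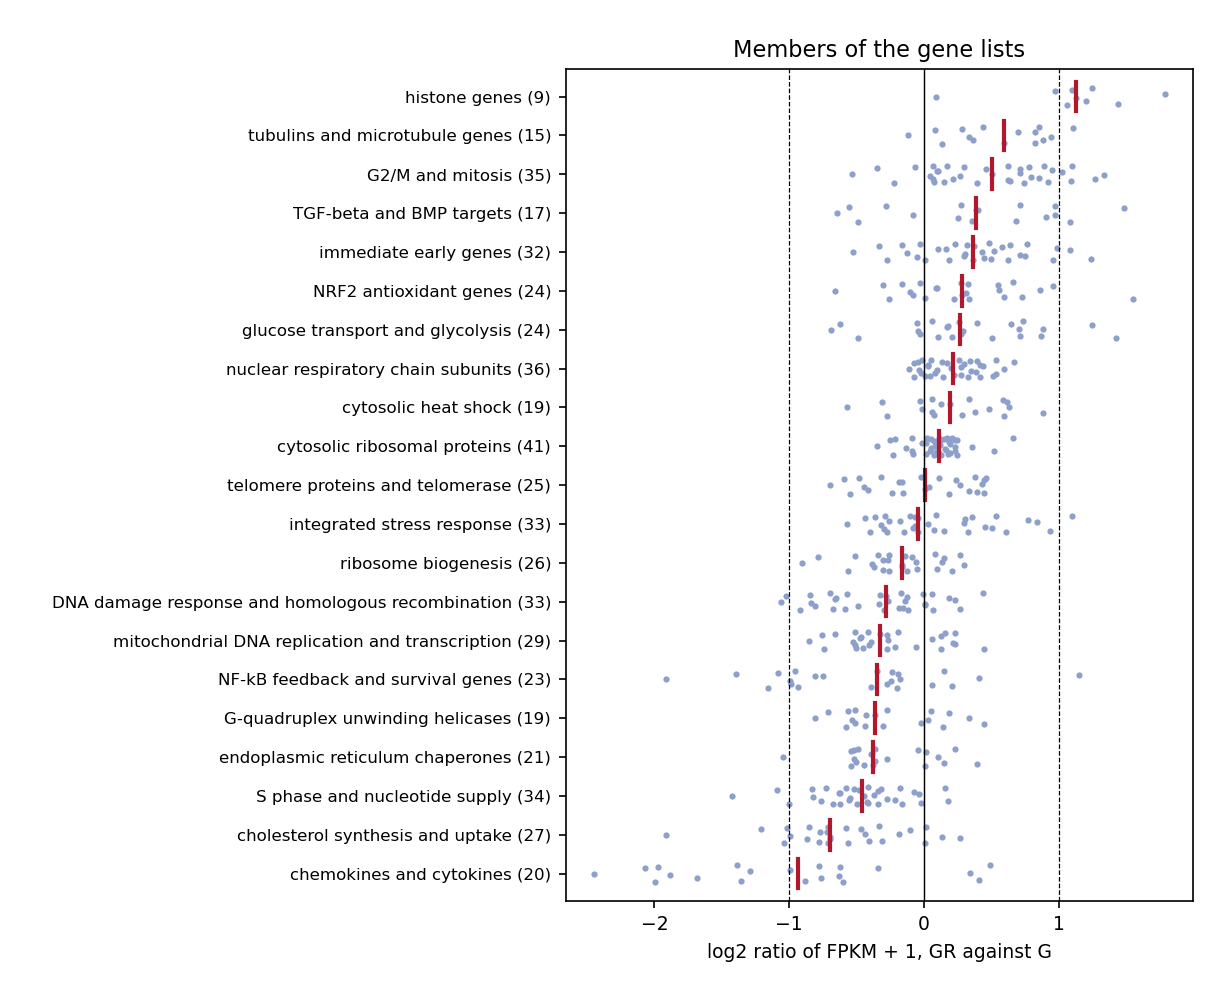
Log2 ratio of FPKM + 1 in GR against G for the measured members (points) of 21 gene lists, with each list's median as a red bar, its number of members in brackets and dashed lines at 2-fold. Medians run from -0.94 for chemokines and cytokines to 1.13 for histone genes.

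Outside the lists, UBALD2 was the highest of the genes at 5 FPKM or more that overlap no other on their strand (15.0 FPKM in G, 55.4 in GR, 1.82). RHBDD2, a rhomboid-like protein gene (11.97 and 34.7, 1.46), and S100A10, an annexin A2 partner (33.1 and 91.8, 1.44), were among the 15 highest. TIPARP, a target of the aryl hydrocarbon receptor, stood at 7.87 and 22.6 FPKM (1.41). ESM1, a secreted proteoglycan gene, was lower (37.1 and 9.35 FPKM, -1.88) and had similar ratios in R against Control (-1.91) and TR against T (-2.01). INO80B-WBP1, a readthrough gene, had 0 counts in each library without R and 1425 in GR, and how its reads were divided from the genes it spans is unknown.

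Long intergenic non-coding RNA (lincRNA) genes leaned lower in GR. Of 272 measured, 39 (14.3%) were past 2-fold lower and 2 (0.735%) higher, and the median was -0.36. The shares among 10787 protein-coding genes were 108 (1.001%) lower and 132 (1.22%) higher, and the median was 0.02. NEAT1, the paraspeckle RNA, stood at 20.2 FPKM in G and 6.53 FPKM in GR (-1.49), and MALAT1, a nuclear speckle RNA, at 15.0 and 4.75 FPKM (-1.48). Both were named after their values were seen, and both overlap another gene. Of the 272, 85 passed the FPKM minimum through G alone and 24 through GR alone; among the 163 that reached it in both, 26 were lower and 1 higher, with a median of -0.27. In R against Control 31 of the 272 (11.4%) were lower and 4 higher, beside 6.36% of the protein-coding genes lower, and in TR against T 61 (22.4%) were lower and 9 higher, beside 10.2%.

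RN7SL1, the RNA of the signal recognition particle, stood at 4.88, 4.94, 20.6, 3.72, 7.24 and 2.26 FPKM in the 6 libraries (-2.73). RN7SL2, a near-identical copy, stood at 37.3 FPKM in G and 5.39 FPKM in GR (-2.58). G was the high library for both, as it was for the chemokines, and together they made up 0.00185% of counts in G and 0.000245% in GR. These RNAs lack poly(A) tails and are not what oligo(dT) beads select, and the part of that selection in the results was not tested.

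The ratio followed the base composition of the transcripts. Over protein-coding genes in 5 equal bins of transcript GC, the median log2 ratio of GR against G went from -0.28 in the lowest bin to 0.29 in the highest. The count of genes at least 2-fold higher went from 2 to 61 and that of lower genes from 46 to 10. Spearman's rho over these genes was 0.51 for GR against G, 0.47 for TR against T and 0.02 for R against Control, as a description across genes of single libraries, which are not independent. The median transcript GC was 57.2% for the 173 higher nuclear genes, 45.6% for the 241 lower ones and 48.2% for all.

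**Figure D5:**
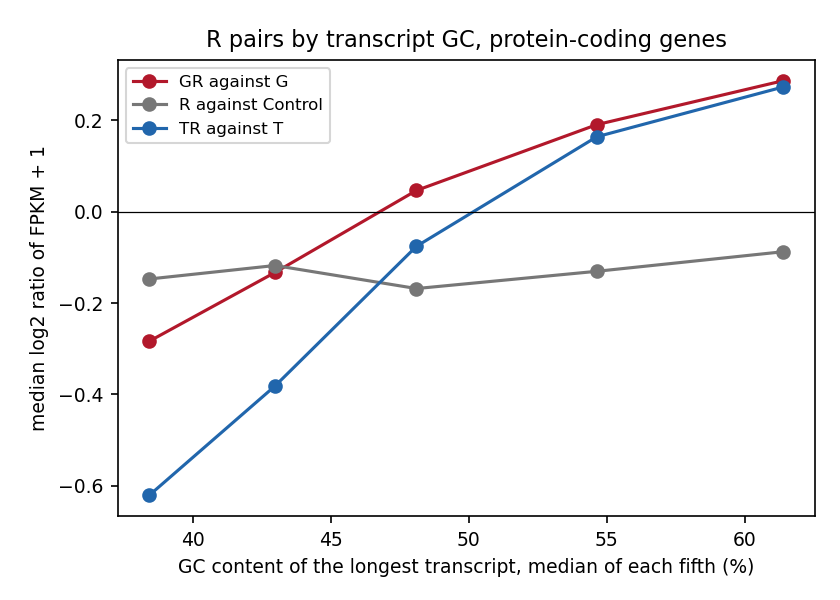
Median log2 ratio of FPKM + 1 in each of 5 bins of protein-coding genes by GC content of the longest transcript, for the 3 pairs with and without R. GR against G and TR against T rise with GC from -0.28 and -0.62 to 0.29 and 0.27, and R against Control stays between -0.17 and -0.09.

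With the trend on GC and length removed, 114 genes were higher and 241 lower. The medians were then 0.66 for mitotic genes, -1.04 for chemokines and cytokines, -0.61 for cholesterol genes, 1.02 for histones, -0.18 for endoplasmic reticulum chaperones and -0.16 for G-quadruplex helicases. The higher and lower genes also spanned shorter stretches of genome, with medians of 11.7 and 9.24 kb against 26.9 kb for all. These sets differ in gene type: 76.3% of the higher, 44.8% of the lower and 85.8% of all were protein-coding. Among protein-coding genes in 5 equal bins from short to long span, the lower genes numbered 21, 25, 18, 28 and 16. The higher ones numbered 44, 37, 27, 15 and 9. Fewer than 80% of either set had a promoter entry, so a check of G-quadruplex motifs in their promoters was void.

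Set beside the other R pairs, the difference between GR and G was the smallest. In the other pairs the source label changes together with R, and the part of each in this order cannot be told apart. At least 2-fold, 3.55% of measured genes differed in GR against G, 10.4% in R against Control and 17.9% in TR against T. Of the 173 higher nuclear genes, 62 were also at least 2-fold higher in R against Control (35.8% of the 173 and 17.5% of the 355) and 109 in TR against T (63.0% of the 173 and 14.5% of the 751). These 355 and 751 genes were 3.01% and 6.01% of the nuclear genes measured in those pairs. Of the 241 lower ones, 61 were also lower in R against Control (25.3% and 7.25% of the 841) and 109 in TR against T (45.2% and 7.51% of the 1452). The 841 and 1452 genes were 7.14% and 11.6% of those measured. In neither other pair were 56 of the higher genes and 118 of the lower ones past 2-fold.

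Genes past 2-fold in both other pairs mostly had the same sign in GR against G, 171 of 192 for higher and 316 of 348 for lower genes, at smaller size. These 3 pairs share no library. The SD of the nuclear log2 ratios over the genes measured in G or GR was 0.47 for GR against G, 0.60 for R against Control and 0.74 for TR against T.

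Of the 51 genes whose R effect differed in the test, 23 (0.0997% of those tested) had a higher R effect in G and 28 (0.121%) a lower one. In 27 of them a library had a count of 0, 37 overlapped another gene on the same strand and 22 had no symbol of their own. The 5 smallest p-values belonged to genes with both an overlap and a count of 0 in a library, among them the readthrough genes HNRNPUL2-BSCL2 and HSPE1-MOB4, and how reads were divided between overlapping genes is not known. There were 13 with no count of 0 that reached 5 FPKM somewhere, and these included PPP1R10, a regulatory subunit of protein phosphatase 1 (19.3, 10.1, 11.9, 0.680, 1.51 and 11.1 FPKM in the 6 libraries), and HPS6, a lysosome-related organelle gene (15.4, 9.40, 9.89, 0.793, 2.14 and 13.3 FPKM). Both were low only in R and TR and kept their level in GR. Their differences were 3.48 (SE 0.77, edgeR adjusted p = 0.0404) and 3.43 (SE 0.78, edgeR adjusted p = 0.0494). With median-ratio factors in edgeR both calls were lost (adjusted p 0.537 and 0.601). The DESeq2 Wald test, which also scales by median ratios, kept both (adjusted p 0.0129 and 0.0234).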

How the data were processed

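Per the labels' protocols, mRNA was selected with oligo(dT) beads, made into dUTP strand-marked libraries and read as paired 150-base reads. Tools listed in the submitters' processing notes are HISAT2 2.2.1, StringTie 2.1.6, cutadapt 1.9, edgeR and DESeq2. Which build and annotation the authors used is nowhere given in those sources. A table deposited by the authors holds 33706 genes with a whole-number read count and an FPKM value for each of 6 libraries. The authors' counts were used as deposited, and their FPKM values, counts scaled by gene length and library depth, were used as deposited. GENCODE release 29 holds 92.6% of the identifiers and overlaps the coordinates of 99.89% of these on GRCh38, so table coordinates are printed as GRCh38.

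Log2 ratios of FPKM + 1 were taken for GR against G over genes at 1 FPKM or more in either library, and counted at 2-fold. With 1 library a group there is no test. The R:G term was tested on counts in a model of oligo, R and R:G (edgeR 4.0.16, TMM, filterByExpr, Benjamini-Hochberg adjustment, threshold 0.05) in R 4.3.3, with DESeq2 1.42.0 as an alternative. The residual degree of freedom is the departure between R against Control and TR against T, not a spread between replicates. The p-values thus take R to act alike in the backgrounds without G, which was not tested. They reflect only how these libraries vary, which may be technical. The test was tried on simulated data with known changes and missed most of the smaller ones. A gene that was not called thus cannot be read as unchanged. The mitochondrial shares have 95% Wilson intervals of 6.163 to 6.173% in G and 0.891 to 0.895% in GR, and these and a count of 0, which allows 3 counts, cover counting error only. The labels do not say how the cultures were set up.

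Named genes were nuclear genes with a symbol of their own and at least 5 FPKM in either library with the 15 highest and 15 lowest ratios, the mitochondrial mRNAs and rRNAs, up to 5 members of each of 40 lists, and the 5 smallest p of the test. Any other gene was chosen after its values were seen. The members and lists were chosen with earlier results of these data known. Transcript GC and length are of the longest GENCODE transcript, and promoters are from RefSeq.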

Additional observations from a re-analysis of the deposited data

Results flagged for a closer look

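The R effect in G differed from that in the other backgrounds, by edgeR's quasi-likelihood test of the R:G term, for 10 genes that have their own symbol, reach 5 FPKM somewhere and have no count of 0. These calls depend on the processing: over all genes tested, 9 were called with median-ratio factors and 0 without a filter. In the pairs without G, R and the source label also change together. The difference on the log2 scale was -3.80 for HSPA1A, -3.83 for HSPA1B, -4.12 for FOS, -2.83 for DUSP1, -3.79 for IL6 and -3.15 for H2AC19. It was 3.48 for PPP1R10 and 3.43 for HPS6. For 2 short non-coding RNAs it was -7.62 (SNORD14E, which lies inside the HSPA8 gene and had 5 counts in G and 4 in GR) and -3.96 (RN7SK, the 7SK RNA, with 178 and 122 counts).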

How the results depend on the processing

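No paired analysis was possible because each group had 1 library and the labels give no shared replicate numbers. The counts of genes at least 2-fold higher and lower were 365 and 789 with a pseudocount of 0.1, 39 and 76 with one of 5, and 487 and 754 from CPM (count shares) with TMM scaling and a prior count of 0.5. A minimum of 5 FPKM left 156 lower, removing the GC and length trend left 114 higher, and leaving out genes that overlap another or share a symbol (chosen after seeing the data) left 101 and 179. The median of the mitochondrial mRNAs was -4.42 rescaled without mitochondrial genes, -4.27 from CPM and -4.01 with the trend removed. The R:G test called 9 genes with median-ratio factors, 0 without a filter (458 at an unadjusted p under 0.05) and 43 with DESeq2, against 51 (943 at an unadjusted p under 0.05), and 13 of the 51 had no count of 0 and at least 5 FPKM in a library (chosen after seeing the data). Without Control or R the test has no residual degrees of freedom, and the values were -4.26 for HSPA1A and 2.39 for PPP1R10. Without T or TR they were -3.35 and 4.59. Without G or GR the term cannot be estimated. The cause of these shifts was not tested. Without the FPKM minimum the medians fell from 1.13 to 0.07 for histones, 0.46 to 0.11 for mesenchymal and epithelial genes, 0.26 to 0.01 for metalloproteinases and 0.22 to 0.0066 for Notch genes. List medians changed sign under at least 1 setting for apoptosis, class I, cyclin-dependent kinase inhibitor, hypoxia, stress response, metallothionein, mitochondrial chaperone, telomere, fibroblast and cell line lists, among them hypoxia (0.07 to as low as -0.15) and the cell line list (-0.13 to as high as 0.37).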
